A study of Caenorhabditis elegans with 2 samples.

Results

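The 259 microRNA genes of Caenorhabditis elegans were examined in peak lists from ChIP-seq, the sequencing of DNA recovered by chromatin immunoprecipitation, of tagged REC-8. They were chosen by annotation alone, as genes of the microRNA biotype with a symbol beginning mir-, let-7 or lsy-6, and no measured value entered the choice. The Ensembl annotation of the WBcel235 genome holds 46890 genes on the nuclear chromosomes, of which 261 have that biotype. The other 2, lin-4 and F39B1.3, were left out by their symbols. Of the members, 153 were intergenic, 95 lay inside an intron of a protein-coding gene and 11 overlapped a protein-coding exon, and 73 were on X and 186 on the autosomes.

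The worms were hermaphrodites of strain YL563, a transgenic line with stable expression of REC-8 carrying GFP (eGFP in the description) and FLAG at its C terminus. They were grown from L1 larvae that had been starved after bleaching, and were collected as young adults after 48 hours. Per the labels, whole animals were the source, sonication broke the chromatin and an anti-GFP antibody was used for the precipitation, although a further label names the antibody as rec-8. There was 1 group of 2 biological replicates of the same line, and no untagged or mutant group, so no contrast between conditions exists and no p-value is given. Germline and somatic nuclei were not separated, and fewer cells of a type and less REC-8 per cell cannot be told apart. The authors called peaks with a control file, but no control library was analysed here.

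REC-8 is a kleisin, the subunit that closes the cohesin ring around sister chromatids, and is known for its role in meiosis in the germline. MicroRNA genes are transcribed into primary transcripts from which a hairpin, the precursor, is cut, and 1 arm of the hairpin usually becomes the mature microRNA that guides Argonaute proteins to messenger RNAs. Bases 2 to 8 of the mature RNA, the seed, do most of the pairing with targets, so genes that share a seed are grouped as a family. In worms the let-7 family acts in the timing of larval development, and the mir-35 and mir-51 families are known to be required in embryos.

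The mature sequences of the families and genes that carry most of the results are shown first, 5′ to 3′, read from the RefSeq annotation of WBcel235, with the seed in capitals. The members of the mir-35 family, which share the seed CACCGGG, are shown because nearly all of them had a REC-8::GFP summit nearby.
mir-35: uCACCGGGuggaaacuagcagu
mir-36: uCACCGGGugaaaauucgcaug
mir-37: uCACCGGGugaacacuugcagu
mir-38: uCACCGGGagaaaaacuggagu
mir-39: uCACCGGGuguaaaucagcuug
mir-40: uCACCGGGuguacaucagcuaa
mir-41: uCACCGGGugaaaaaucaccua
mir-42: uCACCGGGuuaacaucuacaga

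The mir-51 family is shown next, because its 6 members share the seed ACCCGUA but are spread over chromosomes IV and X. On X, mir-54, mir-55 and mir-56 form a cluster, and the REC-8::GFP values differed between the places.
mir-51: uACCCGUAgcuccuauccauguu
mir-52: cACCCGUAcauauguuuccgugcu
mir-53: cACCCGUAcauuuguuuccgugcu
mir-54: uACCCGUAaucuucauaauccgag
mir-55: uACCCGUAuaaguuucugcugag
mir-56: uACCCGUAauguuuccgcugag

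The mir-58 family, related to bantam of Drosophila, is shown because mir-58.1 was among the strongest members. Its seed differs from that of the other 4 in the last base.
mir-58.1: uGAGAUCGuucaguacggcaau
mir-80: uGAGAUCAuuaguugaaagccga
mir-58.2: aGAGAUCAaccauugagauccaa
mir-81: uGAGAUCAucgugaaagcuagu
mir-82: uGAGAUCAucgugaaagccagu

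Members of the let-7 family are shown because most of them had no summit within 500 bp. The seed of mir-793 differs from that of the other 4 shown in its last base.
let-7: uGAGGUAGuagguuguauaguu
mir-48: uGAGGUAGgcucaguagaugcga
mir-84: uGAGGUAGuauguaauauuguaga
mir-241: uGAGGUAGgugcgagaaauga
mir-793: uGAGGUAUcuuaguuagacaga

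The remaining pair are the other genes, beside mir-51 and mir-58.1, that lay at a reproducible peak.
mir-4936: uGCUUUGUggcuuugcuggua
mir-239.1: uUUGUACUacacauagguacugg

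Each of the deposited lists gives, for every peak, a summit position and a signal, the value that the authors' peak caller assigned. A gene was counted when its precursor started within 500 bp of a summit, and the strongest such summit was kept. The relaxed lists hold peaks and background, as they were made as input for a reproducibility analysis. They comprised 18953 peaks for the reads of both replicates together (the pooled list), 21160 for replicate 1 and 21503 for replicate 2. Signal was at least 23.63, 14.97 and 11.90 in these lists, and only 8.01% of the pooled peaks had a q-value of 0.05 or less. A reproducible set of 606 peaks had been selected from the pooled list. Depth is unknown, since no read counts are in the files. Signals were compared only within a list, and the intervals below, exact 95% binomial intervals, cover the counting of genes only.

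In the pooled list 92 of the 259 microRNA genes, 35.5% (29.7 to 41.7), had a summit within 500 bp. Among all nuclear genes the share was 20.5%, and it was 25.2% when piRNA genes, which are numerous and packed together, were left out. Replicate 1 had a summit at 91 members, 35.1% (29.3 to 41.3), against 21.3% of all nuclear genes. Replicate 2 had 95 members, 36.7% (30.8 to 42.9), against 23.0%. The shares in all 3 lists thus lay above those of all genes, with intervals that did not reach them. Neighbouring members can share a summit, as 23 of the 92 did at 10 pooled summits. These intervals treat genes as independent and are therefore too narrow. A summit in the pooled list and in both replicates was found at 61 members, 23.6% (18.5 to 29.2), against 9.63% of all nuclear genes. No relaxed list had a summit near 132 members, 51.0% (44.7 to 57.2). The matching share of all nuclear genes was not counted, so this figure does not show fewer summits than at genes in general.

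Other gene classes set the scale of these shares. In the pooled list 88.2% of tRNA genes, 51.7% of snoRNA genes and 51.2% of snRNA genes had a summit within 500 bp of the start, as did 24.4% of protein-coding genes. MicroRNA genes therefore stood between the protein-coding genes and the other small structural RNAs.

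The gap to all genes depended on the threshold. Among pooled peaks above the median signal, 66 members, 25.5% (20.3 to 31.2), had a summit, against 12.1% of all nuclear genes. The strongest pooled summit had a q-value of 0.05 or less at 16 members, 6.18% (3.57 to 9.84), against 3.73% of all nuclear genes, a share that lies inside the interval. Only 4 members, 1.54% (0.422 to 3.91), lay at a peak of the reproducible set, against 1.98% of all nuclear genes, a share near the background. Of tRNA genes, 44.4% lay at such a peak.

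**Figure D1:**
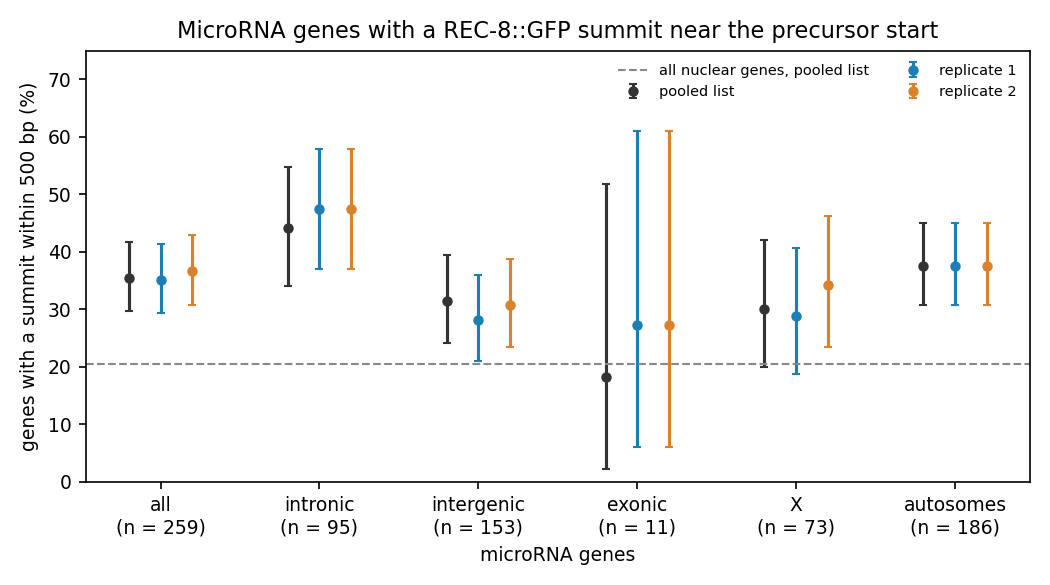
Percent of microRNA genes with a REC-8::GFP summit within 500 bp of the precursor start, by class and for X and the autosomes, in the pooled list and each replicate; bars are exact 95% binomial intervals and the dashed line is the share of all nuclear genes in the pooled list (20.5%). Of the 6 sets drawn, intronic genes lie highest in each list, from 44.2% to 47.4%, and the interval of the 11 exonic genes spans the background.

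Pooled summits were more frequent near the precursors than in their surroundings, except from 250 to 500 bp downstream. A summit was counted once for every member near it, so those at clustered members were counted repeatedly. Counted in bins of 250 bp, pooled summits numbered 11.2, 12.0, 12.0 and 8.11 per 100 members in the 4 bins from 500 bp upstream to 500 bp downstream. In the 12 bins farther out, up to 2000 bp on either side, they numbered 6.18 to 8.49. Over all nuclear genes the 4 central bins held 5.08, 6.75, 6.70 and 4.68 summits per 100 genes and the outer bins 4.12 to 4.82. The surroundings of microRNA genes were thus also richer in summits than those of genes in general. The single lists were less even. The bin just upstream of the start held 15.4 summits per 100 members in replicate 1 and 13.1 in replicate 2, and the outer bins 5.79 to 10.4 and 5.02 to 11.6. In each replicate the other 3 central bins did not exceed the fullest outer bin. The strongest summit lay upstream of the precursor start at 52 members and at or downstream of it at 40. It was within 100 bp at 23 members, and it fell inside the precursor itself at 14.

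**Figure D2:**
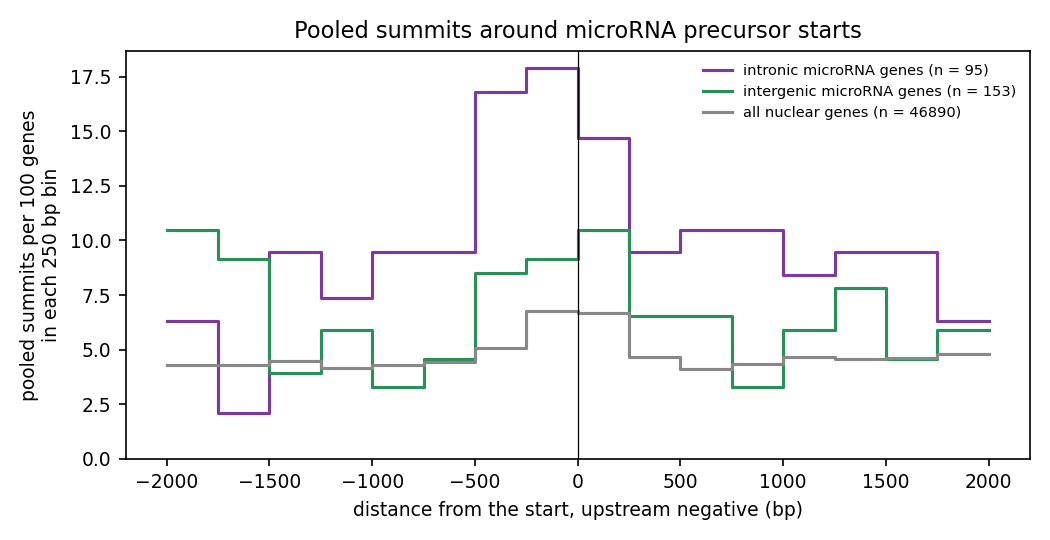
Pooled REC-8::GFP summits per 100 genes in 250 bp bins of distance from the start, upstream negative, for intronic and intergenic microRNA genes and for all nuclear genes. The intronic line reaches 17.9 just upstream of the precursor start, the line of all genes 6.75; the intergenic line reaches 10.5 just downstream of the start and again in the bin farthest upstream.

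Neighbouring genes were checked because tRNA and snoRNA genes carry strong REC-8::GFP peaks. A tRNA, snoRNA or snRNA gene started within 1000 bp of 15 members, of which 6 had a pooled summit (40.0%). Among the other 244 members 86 had one (35.2%), so leaving those neighbours out hardly moved the share over all members. In the replicates the members near such a gene had a summit more often, 53.3% against 34.0% in replicate 1 and 60.0% against 35.2% in replicate 2, with intervals that overlap. A pooled summit with a q-value of 0.05 or less was found at 4 of the 15 (26.7%, 7.79 to 55.1) and at 12 of the 244 (4.92%, 2.57 to 8.43), and the part of these neighbours in that was not tested. A protein-coding transcript started within 1000 bp of 90 members, of which 34 had a summit (37.8%), against 58 of the other 169 (34.3%). The same shares were 42.2% and 31.4% in replicate 1 and 41.1% and 34.3% in replicate 2. Most microRNA precursors are cut from longer transcripts whose starts are not annotated, and only 7 members had an annotated primary transcript that starts elsewhere.

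Intronic microRNA genes had summits more often than intergenic ones, by a margin that varied with the list. In the pooled list 42 of 95 intronic genes had a summit, 44.2% (34.0 to 54.8), against 48 of 153 intergenic genes, 31.4% (24.1 to 39.4), and these intervals overlap. The same shares were 47.4% (37.0 to 57.9) and 28.1% (21.1 to 35.9) in replicate 1, where the intervals did not overlap. Clustered members that share a summit count separately in all these intervals, which are too narrow for that reason. In replicate 2 they were 47.4% (37.0 to 57.9) and 30.7% (23.5 to 38.7), with a slight overlap. A summit in the pooled list and both replicates was found at 32 intronic genes, 33.7% (24.3 to 44.1), and at 28 intergenic genes, 18.3% (12.5 to 25.4). Of the 11 exonic genes 2 had a pooled summit.

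The same split did not separate other non-coding genes. Among unclassed ncRNA genes, 24.3% of 2718 intronic and 24.3% of 4205 intergenic genes had a pooled summit. Base composition moved with the split in microRNA genes: the 300 bases centred on the precursor start had a median GC content of 41.7% in intronic and 37.7% in intergenic members. The GC content also differed within each class, at 42.7% for intronic members with a pooled summit and 39.0% for those without, and at 40.0% and 37.0% for intergenic members. Its part in the result was not tested.

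Both orientations of intronic genes had summits. Of 65 microRNAs on the same strand as the host gene, which can be cut from the host's own transcript, 26 had a pooled summit, 40.0% (28.0 to 52.9). Of 30 on the opposite strand 16 had one, 53.3% (34.3 to 71.7), an interval that covers the first share. The opposite-strand genes include the mir-35 and mir-54 clusters, in which several members share a summit. With members whose windows overlap merged into 1 locus, 33 of 81 intronic loci (40.7%) and 42 of 130 intergenic loci (32.3%) had a pooled summit. The margin was thus narrower when each locus counted once. Loci were merged in the pooled list only, so the wider margins of the replicates were not checked in this way.

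On X, 22 of 73 microRNA genes had a pooled summit, 30.1% (19.9 to 42.0), against 23.9% of all genes on X. On the autosomes 70 of 186 did, 37.6% (30.7 to 45.0), against 20.01% of all autosomal genes. The autosomal members thus lay above their background, while the interval of the X-linked members covered theirs. The autosomal background includes piRNA genes. Over all nuclear genes without piRNA genes the share was 25.2%, which also lies below the autosomal interval. In replicate 1 the shares were 28.8% on X and 37.6% on the autosomes, and in replicate 2 they were 34.2% and 37.6%. Intervals of the X-linked and autosomal shares overlapped in each list.

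Class and chromosome crossed. Of 17 intronic members on X, 9 had a pooled summit (52.9%), 8 did in replicate 1 and 13 in replicate 2. Of 56 intergenic members on X, 13 had a pooled summit (23.2%, 13.0 to 36.4), a share close to that of all genes on X. On the autosomes 33 of 78 intronic members (42.3%) and 35 of 97 intergenic members (36.1%) had one. The low intergenic share on X holds 10 genes from a pair of clusters, mir-4807 with mir-4808, mir-4809, mir-2220 and mir-4810.2, and mir-1018 with mir-4925, mir-4923.2, mir-4923.1 and mir-4921. None of these 10 had a summit within 500 bp in any of the relaxed lists. Intergenic means only that they lie outside protein-coding genes, and whether they lie in introns of other gene types was not examined.

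By autosome, the pooled share was highest on chromosome III, at 13 of 27 members (48.1%, 28.7 to 68.1), where 33.3% of all genes had a summit. On chromosome II it was 21 of 48 (43.8%, 29.5 to 58.8), against 24.8% of all genes there. On chromosome IV, which carries most piRNA genes, it was 17 of 50 (34.0%, 21.2 to 48.8) against 14.1%. On chromosome V it was 10 of 28 (35.7%, 18.6 to 55.9) against 18.8%, and on chromosome I 9 of 33 (27.3%, 13.3 to 45.5) against 32.1%. Chromosomes II and IV thus lay above their own backgrounds, while the other intervals covered theirs. The background of IV includes its piRNA genes, and of all piRNA genes only 10.8% had a pooled summit. The share without them was not counted by chromosome. The interval of IV covers the 25.2% found over all nuclear genes without piRNA genes. Whether IV lies above its own background without them cannot be told. The pooled intervals of the 5 autosomes overlapped, but those of the replicates did not all do so. In replicate 1 chromosome III had 63.0% (42.4 to 80.6) and chromosome V 21.4% (8.30 to 41.0). In replicate 2 chromosome III had 59.3% (38.8 to 77.6) and chromosome IV 22.0% (11.5 to 36.0). The shares of all genes by chromosome were counted in the pooled list only. There chromosome III also stood above V and IV, at 33.3%, 18.8% and 14.1%. The differences in the replicates are therefore not shown to be particular to microRNA genes.

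The signal at members with a summit was moderate. Its pooled median was 39.60 over 92 members, with a range of 23.74 to 180.3, against 33.35 over the 9618 nuclear genes with a summit and 30.99 over every peak of the list. The median member lay at the percentile 77.5 of the pooled list, the median gene with a summit at 60.3 and the median tRNA gene at 96.8. In replicate 1 the medians were 24.83 at members and 21.07 at all genes with a summit, and in replicate 2 they were 19.85 and 17.31. Members were thus somewhat above the general level in every list and far below tRNA genes. Intronic members had a pooled median of 43.85 and intergenic members one of 35.70, but in replicate 1 the order was turned, at 24.83 and 25.51. The pooled medians were 42.28 on X and 37.07 on the autosomes, but the replicates gave 24.83 and 24.12, and 19.85 and 20.10, so that order did not hold either.

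Replicates shared about 2 members in 3. Of the members with a summit in replicate 1, 68.1% also had one in replicate 2, and 65.3% the other way round, for 62 members in all. For the other nuclear genes these shares were 48.7% and 45.1%. The strongest summits of the replicates lay a median of 141.0 bp apart at the 62 members, and within 100 bp of each other at 27. Across these genes, which share 54 distinct pairs of summits and are not independent, log2 signal had a Pearson r of 0.52 and a Spearman rho of 0.47, against 0.71 and 0.58 over 4815 other genes. The replicates thus shared a larger part of the microRNA genes than of other genes, with signals that followed each other less closely, and neither difference was tested. Members also had a summit more often in each replicate, 35.1% and 36.7% against 21.3% and 23.0% of all nuclear genes. The larger shared part is therefore no measure of closer agreement.

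**Figure D3:**
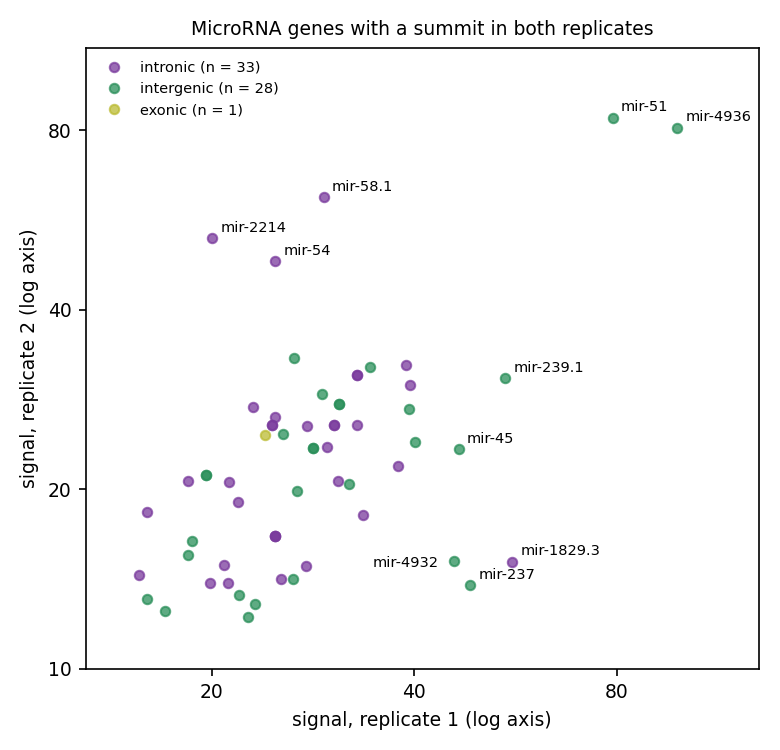
Signal of the strongest summit within 500 bp of the precursor start in replicate 1 (x axis) and replicate 2 (y axis), both on log axes, for the 62 microRNA genes with a summit in both; colours mark the class. Only mir-51 and mir-4936 stand high in both replicates, while mir-58.1, mir-2214 and mir-54 stand high in replicate 2 and mir-1829.3, mir-237 and mir-4932 in replicate 1.

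Some members had a strong summit in 1 replicate and none within 500 bp in the other. In replicate 1 the highest of these were mir-4920 with a signal of 39.27, mir-1833 with 36.85 and mir-8186.1 with 36.37. In replicate 2 they were mir-2218.2 with 32.39, mir-8196.2 with 30.22 and mir-34, a conserved microRNA linked to stress responses, with 28.20. All 6 lay at the percentile 91.6 or higher of their own list.

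The 4 members at a reproducible peak differed in how closely the peak matched the precursor. The gene mir-4936, intergenic on chromosome III, had the highest value. Its signal was 180.3 in the pooled list, 98.36 in replicate 1 and 80.81 in replicate 2, with the pooled summit 60 bp downstream of the precursor start. It ranked 85 among the 606 reproducible peaks, and its 129 bp peak covered the precursor and little else. The window of 300 bases around the summit, chrIII:3249061-3249360 on the plus strand of WBcel235, is printed with the precursor in capitals.
mir-4936: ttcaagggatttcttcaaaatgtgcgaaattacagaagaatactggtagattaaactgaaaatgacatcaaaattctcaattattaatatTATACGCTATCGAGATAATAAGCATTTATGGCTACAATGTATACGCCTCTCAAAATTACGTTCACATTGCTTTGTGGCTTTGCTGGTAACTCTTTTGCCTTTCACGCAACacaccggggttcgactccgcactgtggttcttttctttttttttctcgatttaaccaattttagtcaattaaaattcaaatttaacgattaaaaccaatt

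The nearest protein-coding start, that of Y53G8AL.4, was 281 bp from that summit, and the nearest tRNA, snoRNA or snRNA start was 53772 bp away. The heptamer GGTTCGA, the core of the B box, which in tRNA genes is part of the internal promoter of RNA polymerase III, lay centred 120 bp from the precursor start. That is just past the end of the 110 bp precursor. No annotated non-coding gene covered it.

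The gene mir-51, intergenic on chromosome IV, came next. Signals of 165.6 in the pooled list, 78.90 in replicate 1 and 83.99 in replicate 2 placed it at rank 105 of the reproducible set. The pooled summit lay 32 bp upstream of the precursor start. Both replicates were high and close, with summits 33 bp upstream and 19 bp downstream. The window chrIV:11025994-11026293 is printed on the minus strand, with the precursor in capitals.
mir-51: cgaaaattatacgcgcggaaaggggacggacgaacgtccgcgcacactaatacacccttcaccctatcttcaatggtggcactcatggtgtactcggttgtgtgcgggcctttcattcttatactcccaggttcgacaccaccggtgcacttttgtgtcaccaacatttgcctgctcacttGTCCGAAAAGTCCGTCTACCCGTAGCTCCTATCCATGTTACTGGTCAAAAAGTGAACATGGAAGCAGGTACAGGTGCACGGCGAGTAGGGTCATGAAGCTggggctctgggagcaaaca

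A B box core was centred 49 bp upstream of the mir-51 precursor, within F36H1.17, an annotated ncRNA gene of no further class, and the pooled summit also fell inside F36H1.17. The nearest tRNA, snoRNA or snRNA start was 57003 bp from the summit and the nearest protein-coding start 3041 bp from it. Whether the signal belongs to mir-51 or to F36H1.17 cannot be told apart at this distance.

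The gene mir-58.1 lies on chromosome IV in an intron of phkb-1, on the same strand. It had a signal of 89.24 in the pooled list, 29.32 in replicate 1 and 61.76 in replicate 2, and rank 494 of 606. Its percentile was 87.4 within replicate 1 and 98.8 within replicate 2. Its summit lay 229 bp upstream of the precursor start in the pooled list, and 187 and 222 bp upstream in the replicates. The window chrIV:3232875-3233174, on the plus strand, holds no precursor base and is therefore all in lower case.
mir-58.1: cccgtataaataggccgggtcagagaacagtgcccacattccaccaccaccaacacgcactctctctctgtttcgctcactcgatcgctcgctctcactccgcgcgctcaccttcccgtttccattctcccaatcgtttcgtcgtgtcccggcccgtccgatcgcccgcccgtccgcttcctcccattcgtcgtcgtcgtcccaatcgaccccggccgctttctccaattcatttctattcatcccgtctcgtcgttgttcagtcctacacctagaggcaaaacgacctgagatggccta

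This window had a GC content of 58.0%, against a median of 37.3% over all nuclear pooled summits. It held 1 match to the GC box CCGCCC and 2 to the GA repeat GAGAGA, counted on either strand, and no B box core. The nearest protein-coding start was 3826 bp from the summit.

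The gene mir-239.1, intergenic on X, had signals of 85.15, 54.59 and 30.72 in the pooled list, replicate 1 and replicate 2, at rank 538. Its summit lay 235 bp downstream of the precursor start, past the end of the 98 bp precursor, and the snoRNA gene C34E11.20 started 565 bp away from it. The part of that neighbour in the result was not tested.

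**Figure D4:**
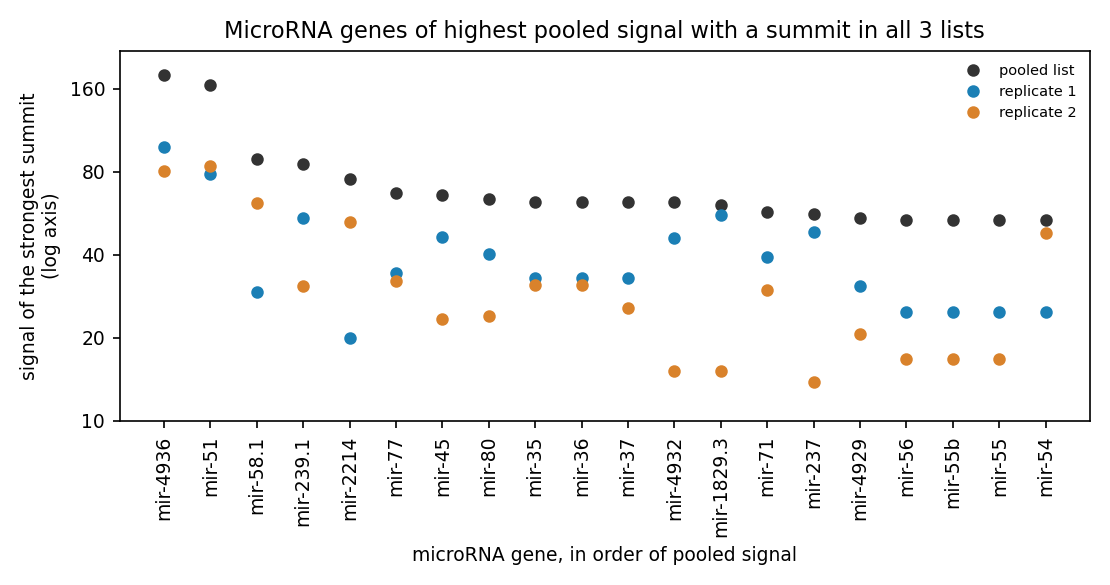
Signal of the strongest summit within 500 bp, on a log axis, for the 20 microRNA genes of highest pooled signal among those with a summit in all 3 relaxed lists, in order of the pooled value; each list has its own scale. Only mir-4936 and mir-51 exceed 160 in the pooled list.

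Below these, 16 further members made up the 20 of highest pooled signal with a summit in every relaxed list, at 53.55 to 75.14. The intronic mir-2214 had 75.14 in the pooled list, 20.01 in replicate 1 and 52.75 in replicate 2. The intergenic mir-45 had 65.67, 46.58 and 23.38, and mir-80, of the mir-58 family, had 63.87, 40.14 and 23.98. The gene mir-71, which acts in the worm's lifespan and lies in an intron of ppfr-1, had 57.39, 39.41 and 29.86. The gene mir-4932 had 62.32, 45.88 and 15.17, with its summit 108 bp from a protein-coding start. The intronic mir-4929 had 54.51, 30.77 and 20.62, with its summit 192 bp from the start of a protein-coding gene.

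Among the 20, 3 had a pooled summit within 500 bp of the start of another small RNA gene. The summit of mir-237, the paralog of lin-4, lay 347 bp from the precursor but 14 bp from the start of the tRNA gene F22F1.t2, and had signals of 56.46, 48.47 and 13.80 in the pooled list, replicate 1 and replicate 2. That of mir-1829.3 lay 104 bp from the tRNA gene F39B1.t1, with 60.54, 55.97 and 15.12. For mir-77 the snoRNA gene T21B4.20 started 224 bp from the summit, and the precursor start was 42 bp from it, with 67.28, 34.34 and 32.05. In all, 5 members had their pooled summit within 500 bp of a tRNA, snoRNA or snRNA start and 25 within 500 bp of a protein-coding start. In these, the assignment of the signal to the microRNA gene was not tested.

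The strongest members of the remaining classes were weaker. On chromosome V the highest was mir-4935, with 47.43 in the pooled list, 14.09 in replicate 2 and no summit in replicate 1. Among exonic genes it was mir-4813, in idhg-1, with 42.03, 23.97 and 24.70.

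The mir-35 family was nearly complete. For scale, in this family and those below, 35.5% of all members and 20.5% of all nuclear genes had a pooled summit. A summit within 500 bp was present at 7 of its 8 members in the pooled list and in replicate 1 and at all 8 in replicate 2. Genes mir-35 to mir-41 form 1 cluster of 797 bp, at 11537608 to 11538404 on chromosome II, in an opposite-strand intron of Y62F5A.9. Its 7 members therefore share 3 pooled summits and are not independent. The strongest, with a signal of 62.36, lay 249 bp upstream of mir-35, the first gene of the cluster, and also served mir-36 and mir-37. In the replicates, the highest signals at mir-35 were 32.86 and 31.14, with summits 222 and 357 bp upstream, so each replicate had a summit ahead of the cluster. A weak summit of 24.94, at the percentile 11.4, was the strongest near mir-38 and mir-39, and one of 33.52 followed downstream for mir-40 and mir-41. The nearest protein-coding start was 1482 bp from the strongest summit. The gene mir-42, which lies apart from the cluster with mir-43 and mir-44, had only a summit of 14.56 in replicate 2.

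In the mir-51 family 5 of 6 members had a summit in the pooled list, 5 in replicate 1 and 6 in replicate 2. The pooled ones were 3 distinct summits on chromosomes IV and X. With so few separate summits this cannot be told from the share of all members or of all genes. The signals of the members ranged widely. Beside mir-51, mir-52 had 47.59 in the pooled list, 29.18 in replicate 1 and 28.95 in replicate 2. The cluster of mir-54, mir-55 and mir-56 on X, in an opposite-strand intron of F09A5.3, shared 1 pooled summit of 53.55 and 1 of 24.83 in replicate 1. In replicate 2 the strongest summit was 48.21 at mir-54 and 16.70 at mir-55 and mir-56, and mir-55b, on the other strand, shared the values of mir-55. The gene mir-53, a neighbour of mir-51, had only a summit of 12.77 in replicate 2.

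Of the 5 members in the list of the mir-58 family, mir-58.1, mir-58.2 and mir-80 had a pooled summit. With so few genes this cannot be told from the share of all members or of all genes. The summit at mir-58.2 was low, at 27.19, with 19.61 in replicate 1 and none in replicate 2. The neighbouring mir-58c, which shares the seed of mir-58.2, had the same values. The gene mir-82 had 15.10 in replicate 2 only, and mir-81 had no summit in any relaxed list. The strength of the family thus rested on mir-58.1 and mir-80.

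The let-7 family had fewer summits. Its 7 members included 2 with a pooled summit, 2 in replicate 1 and 1 in replicate 2, which with so few genes cannot be told from the share of all members or of all genes. At let-7 the summit had signals of 50.10, 26.81 and 19.85 in the pooled list, replicate 1 and replicate 2, at 491, 469 and 493 bp upstream of the precursor, so all 3 lists placed it in the same spot near the edge of the window. The annotation gives let-7 primary transcripts starting 1050, 209 and 25 bp before the precursor, and the summit lay 559 bp after the first of these starts and 282 bp before the second. The gene mir-794 had 29.54 in the pooled list, 24.28 in replicate 1 and no summit in replicate 2. The other 5, mir-48, mir-84, mir-241, mir-793 and mir-795, had no summit within 500 bp in any relaxed list. At mir-241 a summit with a signal of 65.92 lay 504 bp upstream, just outside the window.

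The mir-64 family had a summit at 1 of 5 members, a share near that of all genes. It was mir-229, the first gene of a cluster of 4, in an intron of gcn-1, with 49.33, 23.04 and 27.44 in the 3 lists and the pooled summit 252 bp upstream of the precursor. The genes mir-64, mir-65 and mir-66, which follow it in the cluster, and mir-63 on X had none in any relaxed list.

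**Figure D5:**
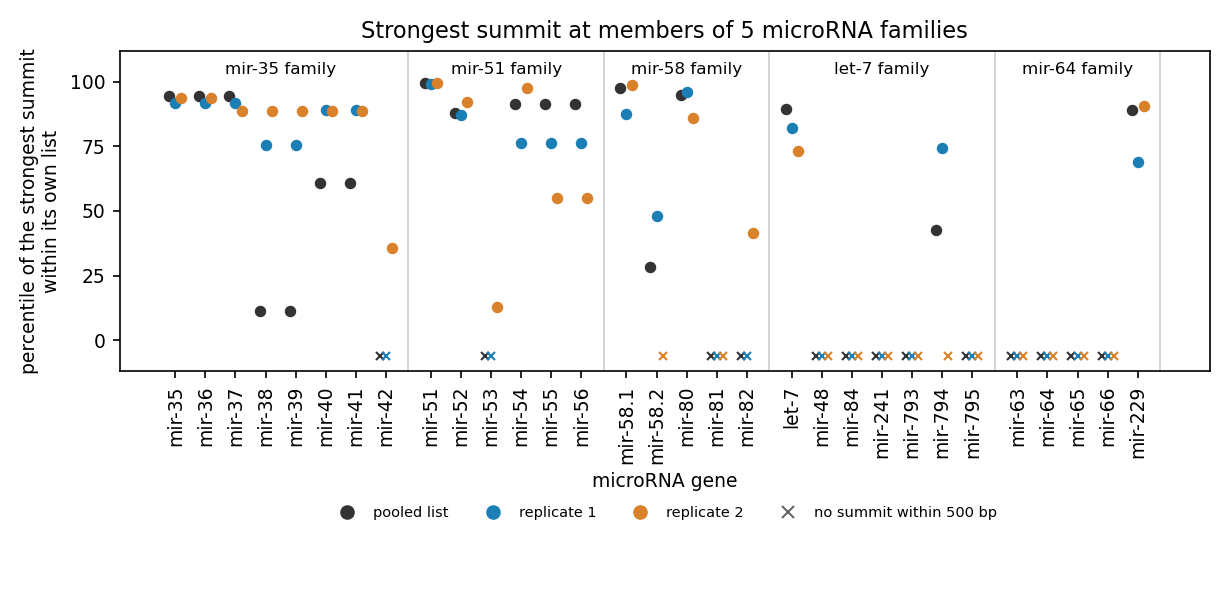
Percentile of the strongest summit within its own list, for each member of 5 microRNA families in the pooled list and both replicates; crosses mark members with no summit within 500 bp. Points fill the mir-35 and mir-51 families except at mir-42 and mir-53, which have a summit in replicate 2 only. Crosses dominate the let-7 and mir-64 families.

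Conserved microRNAs outside these families were mixed. Of 10 such members, some of which share a seed with other worm microRNAs, 5 had a pooled summit, 4 a summit in replicate 1 and 5 one in replicate 2. Counts this small cannot be told from the share of all members or of all genes. Beside mir-71, the gene mir-90 had 49.89, 29.63 and 23.59 in the pooled list, replicate 1 and replicate 2, and mir-87 had 28.94, 16.02 and 18.34. The gene mir-34 had 38.75 in the pooled list and 28.20 in replicate 2 only. The gene mir-124, known for its expression in sensory neurons, had 30.62 and 15.10 in the pooled list and replicate 2, and no summit in replicate 1. The gene mir-252 had 21.54 in replicate 1 only. The muscle microRNA mir-1, the neuronal lsy-6, mir-79 and mir-259 had none in any relaxed list.

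Members that share a seed with another member had summits in all lists more often. Of 107 such members 42 had a pooled summit, 39.3% (30.0 to 49.2), against 50 of the other 152, 32.9% (25.5 to 41.0), and these intervals overlap. A summit in the pooled list and both replicates was found at 34 of the 107, 31.8% (23.1 to 41.5), against 27 of the 152, 17.8% (12.0 to 24.8), where the intervals overlap only slightly. The first group includes the clustered mir-35 and mir-54 genes, which share summits. The mir-2217 genes, with the seeds AGAGUGG and UGACCCU, had no summit in any relaxed list. Members numbered below 1000, the earlier named ones, had a pooled summit in 40.4% (32.1 to 49.2) of 136 cases and later ones in 30.1% (22.1 to 39.0) of 123. Genes in a genomic cluster, with starts within 1000 bp of the next, had one in 42.0% of 50 cases and the others in 34.0% of 209.

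The windows of 300 bases around the strongest summits of members held some motifs more often than the windows around other summits. Shared summits were counted once, which left 79, against 18931 for all nuclear pooled summits, and matches on both strands counted. The B box core GGTTCGA was in 12.7% of the member windows and 4.26% of all. The GC box CCGCCC was in 24.1% and 7.85%, and the GA repeat GAGAGA in 25.3% and 19.1%. The E-box CATATG was in 3.80% and 5.28%. Median GC content was 41.0% at member summits and 37.3% at all, and the part of base composition in these shares was not tested. No motif of the 4 contains another, and a match is a description and not a site.

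Without summits within 500 bp of a tRNA, snoRNA or snRNA start, the B box core was in 9.33% of 75 member windows and 2.59% of the 18054 pooled summits, members included, that passed the same filter. Without that filter, the B box core occurred at 12 members, at 10 distinct summits. In 4 of them, mir-237, mir-1829.3, mir-2212 and mir-1819, the match lay inside an annotated tRNA gene. In the other 8 no tRNA gene was near: they were mir-4936, mir-51, mir-5594, mir-4934, mir-1829.1, mir-1832.1 and the pair mir-8186.1 and mir-8186.2, which share a summit, and only the match beside mir-51 lay in another annotated non-coding gene. Their pooled signals ranged from 24.65 at mir-1832.1 to 180.3 at mir-4936, so the motif accompanied weak summits too. No member had a summit within 500 bp of an annotated tRNA pseudogene start. In windows centred on the precursor start instead, the B box core was in 6.52% of the 92 with a pooled summit and 2.40% of the 167 without. The GC box was in 17.4% and 16.8% of these, the GA repeat in 17.4% and 18.0% and the E-box in 2.17% and 8.38%, so the GC box and the GA repeat were about as frequent without a summit as with one.

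Summits just inside and just outside the window had signals of a similar range. The outermost summits counted were those of let-7 at 491 bp upstream, mir-354 at 494 bp downstream with a signal of 33.65, and mir-355 at 497 bp upstream with 26.40. The nearest not counted were those of mir-241 at 504 bp upstream with 65.92, mir-239.2 at 525 bp downstream with 25.41, and mir-800 at 572 bp upstream with 37.69. The gene lin-4, which the choice by symbol left out, had a summit in all 3 relaxed lists, with 40.64, 25.99 and 25.05 in the pooled list, replicate 1 and replicate 2.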

How the data were processed

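The members and lists were chosen with earlier results of these data known. The authors deposited peak lists on the ce11 build, which is WBcel235, in the narrowPeak format. The deposited signal is the value of the authors' peak caller for each peak, and the deposited q-value is on a −log10 scale. Per the deposited notes, a control file entered the calls. The aligner, the peak caller, its thresholds and the effect of the control on the signal were not given in the sources used here. Lists on ce10 were not used here.

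Genes came from Ensembl release 115, symbols from RefSeq by WormBase identifier (3 members are named by Ensembl only), and sequences from the RefSeq genome and annotation of WBcel235, which held a mature sequence for all 259 members. The start is that of the precursor. Intronic means inside a protein-coding gene and overlapping none of its exons. Intergenic means outside every protein-coding gene, so a precursor inside a gene of another type counts as intergenic. Clusters, seeds and motifs are described with the results.

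Shares carry exact (Clopper-Pearson) 95% intervals. No test was run, since 1 group of 2 replicates gives no contrast. Per the labels the replicates are biological. The named genes were the members at reproducible peaks, the 20 strongest present in every relaxed list, the families and clusters of 4 or more, the strongest of each class, those at the window edge and the 3 strongest seen in 1 replicate only. Genes at a B box core, and the splits by shared seed, by number and by cluster, were added after their values were seen. The search for summits was tested on simulated data, with Python 3.11.15, numpy 2.4.6, scipy 1.17.1 and matplotlib 3.10.9. Alternatives changed the window, the list, the threshold, the overlap rule and the neighbours, as described at the end.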

Additional observations from a re-analysis of the deposited data

How the results depend on the processing

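The share of microRNA genes with a pooled summit, 35.5%, moved with the window and the strictness of the list. With 250 bp it was 22.8% for all members, 30.5% for intronic, 19.0% for intergenic, 19.2% for X-linked and 24.2% for autosomal members. With 1000 bp these shares were 47.9%, 60.0%, 39.9%, 42.5% and 50.0%. All nuclear genes had 12.5% at 250 bp and 31.7% at 1000 bp. In the reproducible set they were 1.54%, 1.05%, 1.96%, 1.37% and 1.61%, so the intronic share fell below the intergenic one, from 1 and 3 genes, and the median signal was 127.4. Pooled peaks above the median signal gave 25.5% of all, 34.7% of intronic, 20.3% of intergenic, 24.7% of X-linked and 25.8% of autosomal members. The share of all nuclear genes was 12.1%. The intronic and X-linked shares stayed within the intervals of their main values, and the X-linked and autosomal shares were close. A peak overlapping the precursor was found at 22.0% of all, 29.5% of intronic, 18.3% of intergenic, 16.4% of X-linked and 24.2% of autosomal members. Replicates with their strongest summits within 100 bp of each other were found at 10.4% of members, against 23.9% with any summit in each.

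With 1 replicate's list in place of the pooled list, the shares were 35.1% to 36.7% for all, 47.4% to 47.4% for intronic, 28.1% to 30.7% for intergenic, 28.8% to 34.2% for X-linked and 37.6% to 37.6% for autosomal members. The median signal was 19.85 to 24.83, since each list has its own scale. Using either end of the precursor, leaving out genes near small RNA or protein-coding starts, merging overlapping windows, keeping only same-strand hosts or using the start of the annotated gene (chosen after seeing the data) left each share within the interval of its main value. No paired analysis was possible because there is 1 group. Depth is unknown, and a gene without a listed peak is not shown to lack REC-8.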
